A study of Mus musculus with 8 samples.

Results

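The genes described here are 9 integrin subunits of mouse T cells (Itgal, Itgb2, Itgb1, Itga4, Itgb7, Itgae, Itga6, Itgav and Itgb3) and Icam1, which encodes the integrin ligand ICAM-1. They were taken by gene symbol, each from the probe set annotated to that symbol alone and, where a gene had several, from the one with the highest mean over the 8 arrays, and they are 10 of 22180 genes measured in this way. The values came from CD3+ T cells of C57BL/6J mice, purified as naive cells from spleen and lymph nodes by negative selection and hybridized to Affymetrix Mouse Gene ST 2.0 arrays, with 1 array for each of 8 conditions. The cells were left untreated (naive), received latrunculin A alone (LatA, a toxin that binds actin monomers), or were activated with anti-CD3 and anti-CD28 antibodies that were soluble (sAb), immobilized on a plate (iAb) or soluble together with latrunculin A (sAb+LatA). The methods cross-link soluble antibody with a secondary anti-hamster IgG and name none for iAb. Antibody-treated cells were harvested at 3 h, or were washed at 3 h, cultured further and harvested at 24 h. All conditions shared the strain and the cell preparation, the labels name no allele, transgene or age, and neither labels nor methods say whether mice were pooled for an array. The LatA array carries no hour in its labels, and the methods place its harvest at 3 h. The paper places the naive cells at baseline, and no untreated array of 3 h or 24 h was analysed here. Antibody and time in culture therefore cannot be told apart at 24 h. At 3 h only the LatA array bears on that question.

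Integrins are cell surface adhesion receptors built from 1 alpha and 1 beta subunit. In T cells Itgal and Itgb2 form LFA-1, which binds ICAM-1 on the partner cell, Itga4 pairs with Itgb1 (VLA-4, a receptor for VCAM-1 and fibronectin) or with Itgb7 (the gut-homing receptor for MAdCAM-1), and Itgb7 also pairs with Itgae to bind E-cadherin on epithelium. Signals from the antigen receptor switch integrins to a state of high affinity without new synthesis, so that mRNA levels describe the supply of subunits and not their activity.

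For Icam1, which was called higher after antibody, and for Itga4 and Itgb7, which were both low with iAb and sAb+LatA at 3 h, the promoter sequences of RefSeq (build GRCm38.p6; 250 bases before to 50 bases after the start, 5′ to 3′ on the strand of the gene) are shown. Of the 10 genes, 5 had an entry in the promoter table (Itgb1, Itga4, Itgb7, Itgav and Icam1). In Icam1 (chr9:21015690-21015989, plus strand) capitals mark the NF-kB motif GGAAATTCC and a match to the interferon-activated sequence TTCNNNGAA. In Itga4 (chr2:79255176-79255475, plus strand) and Itgb7 (chr15:102231886-102232185, minus strand) capitals mark CACCC, the core letters bound by Krüppel-like factors, or its reverse complement GGGTG.
Icam1: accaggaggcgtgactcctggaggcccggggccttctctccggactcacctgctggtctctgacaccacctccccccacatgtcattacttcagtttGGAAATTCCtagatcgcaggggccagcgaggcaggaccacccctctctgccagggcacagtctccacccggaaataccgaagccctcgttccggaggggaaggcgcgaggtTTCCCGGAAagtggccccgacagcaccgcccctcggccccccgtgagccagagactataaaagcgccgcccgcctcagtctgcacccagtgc
Itga4: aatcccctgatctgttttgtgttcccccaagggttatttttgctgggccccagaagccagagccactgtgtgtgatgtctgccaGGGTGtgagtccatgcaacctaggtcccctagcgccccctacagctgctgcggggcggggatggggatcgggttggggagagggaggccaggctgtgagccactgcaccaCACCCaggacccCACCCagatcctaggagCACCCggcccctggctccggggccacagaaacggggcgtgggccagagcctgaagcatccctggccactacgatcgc
Itgb7: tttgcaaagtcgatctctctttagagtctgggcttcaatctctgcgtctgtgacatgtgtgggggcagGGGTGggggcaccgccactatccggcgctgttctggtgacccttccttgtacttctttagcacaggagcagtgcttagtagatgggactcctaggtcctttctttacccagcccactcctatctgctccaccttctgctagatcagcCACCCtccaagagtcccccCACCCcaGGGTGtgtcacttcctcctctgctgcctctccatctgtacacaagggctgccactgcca

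The motifs were searched on both strands and were chosen after the values were seen. The Icam1 window held GGAAATTCC from -153 to -145 and TTCNNNGAA, as TTCCCGGAA, from -42 to -34 relative to the start. Of 32851 promoter windows of the same length, 0.317% held the first and 8.3% the second. The Itga4 window held 4 CACCC matches, with 3 of them within the last 56 bases before the start, and the Itgb7 window also held 4. The other windows held 3 (Icam1, left unmarked in its sequence), 2 (Itgb1) and 1 (Itgav). At least 1 match was found in 57.5% of all windows and 4 or more in 3.1%, with a median of 1. The matches did not overlap each other. Such a match describes letters in the window and no binding was measured.

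The log2 signal of all 10 genes was above background on all 8 arrays, where background is the level that 95% of 1434 chemosensory receptor genes (smell, taste and pheromone receptors, silent in T cells) did not exceed on the same array (4.71 to 4.99). Signals are compared between arrays for a gene and not between genes, because probe sets differ in brightness. T cell markers were bright on every array (summed linear signal of the 9 measured, 13805 to 16951), B cell markers were low (9 measured, 282 to 399), and the sums of NK cell, myeloid, and platelet or erythroid markers were 998 to 1364, 409 to 1242 and 111 to 191. In such bulk RNA, fewer cells of a type and less RNA per cell cannot be told apart.

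**Figure D1:**
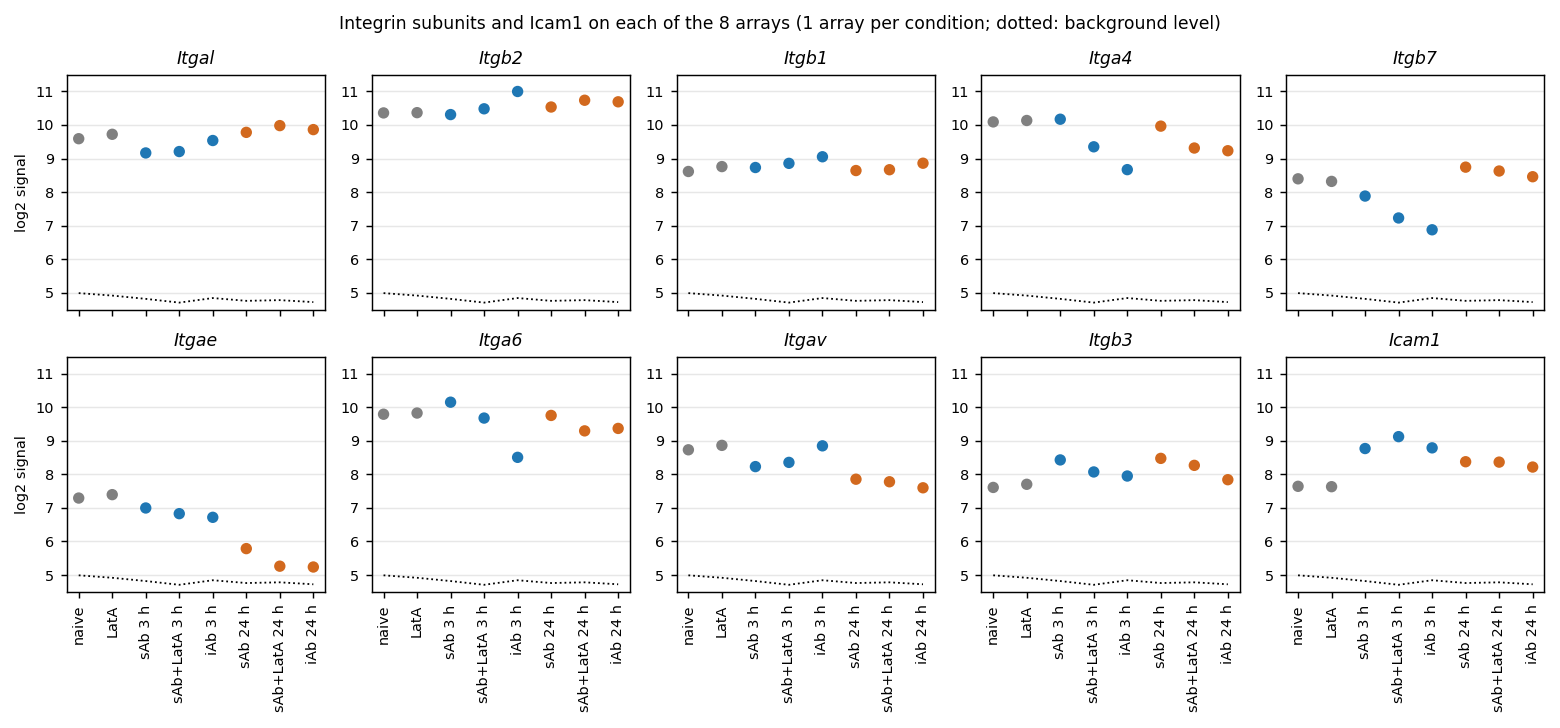
log2 signal (y axis) of each of the 10 genes on the 8 arrays (x axis; grey, no antibody; blue, 3 h; orange, 24 h), with 1 point per array and the background level as a dotted line. Itga4, Itgb7 and Itga6 are lowest on the iAb 3 h array (8.67, 6.88 and 8.50), Itgae is lowest on the 3 arrays of 24 h (5.24 to 5.79), and Icam1 is higher on all 6 antibody arrays (8.22 to 9.12) than on both arrays without antibody.

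With 1 array per condition there is no replicate error, and a difference between 2 arrays is given as such, with at least 1.5-fold as the mark of a larger one. Tests came from additive limma models that use several arrays per effect (6 antibody arrays with stimulus and time; all 8 arrays with antibody state, latrunculin A and immobilization), with Benjamini-Hochberg adjustment over all genes. Their p-values measure the spread of the arrays around the additive model and not the spread between animals. In the model of all 8 arrays, the estimates for antibody against none at 3 h and at 24 h stand for soluble antibody only if effects add. The iAb and sAb+LatA arrays also enter these estimates, which can therefore differ from the sAb arrays. At 3 h, Itga4 was estimated at -0.47 beside 0.08 for the sAb array against naive, and Itga6 at -0.10 beside 0.36. The shift of the iAb arrays from soluble antibody is a separate term, taken as equal at both times.

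LatA alone left the subunits close to the naive array. The differences of the 10 genes ran from -0.08 (Itgb7) to 0.15 (Itgb1) on the log2 scale, with 0 genes at 1.5-fold in either direction, beside 0.919% of all genes higher and 1.14% lower. The pair are different conditions and not replicates.

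Icam1 was called higher after antibody at 3 h and at 24 h, with the largest limma estimate of the 10 genes at 3 h. It lay at 7.64 on the naive and 7.63 on the LatA array, at 8.77 with sAb, 9.12 with sAb+LatA and 8.79 with iAb at 3 h, and at 8.37, 8.36 and 8.22 in the same order at 24 h. All 6 antibody arrays were above both arrays without antibody, and all 3 arrays of 24 h were below all 3 of 3 h. In limma Icam1 rose by 1.31 at 3 h (SE 0.14, 95% CI 0.98 to 1.63, 2.47-fold, adjusted p = 0.00301) and stood 0.73 above no antibody at 24 h (95% CI 0.41 to 1.06, adjusted p = 0.0056). It fell by 0.57 from 3 h to 24 h (95% CI -0.87 to -0.27, adjusted p = 0.0244), a call lost without the pair of sAb+LatA arrays (-0.48, adjusted p = 0.183). The estimate for iAb against sAb was -0.07 with an interval of -0.44 to 0.30, and that for sAb+LatA against sAb was 0.17 (-0.20 to 0.54). The 3 stimuli were thus not separable for Icam1 by these models, with differences of up to 0.54 on the log2 scale inside the intervals.

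The LFA-1 chains that bind ICAM-1 had ranges of 0.81 (Itgal) and 0.69 (Itgb2) over the 8 arrays. Itgal, the alpha L chain, was at 9.59 on the naive and 9.72 on the LatA array, at 9.17 (sAb), 9.21 (sAb+LatA) and 9.54 (iAb) at 3 h, and at 9.78, 9.98 and 9.86 at 24 h. All 24 h arrays were above all 3 h arrays, and in limma Itgal rose by 0.57 from 3 h to 24 h (95% CI 0.25 to 0.89, 1.48-fold, adjusted p = 0.0300). Against no antibody its estimates were -0.41 at 3 h (adjusted p = 0.123) and 0.16 at 24 h (adjusted p = 0.444), neither past the threshold. The call from 3 h to 24 h was lost when each array was centred on its median (0.42, adjusted p = 0.0846), without the sAb arrays (0.55, adjusted p = 0.0774) and without the sAb+LatA arrays (0.47, adjusted p = 0.207).

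Itgb2, the common beta chain of the leukocyte integrins, was at 10.36 and 10.37 without antibody, at 10.31 (sAb), 10.48 (sAb+LatA) and 10.995 (iAb) at 3 h, and at 10.53, 10.73 and 10.69 at 24 h. The iAb 3 h array stood out as the highest, 1.61-fold above sAb at the same time, while the other 7 arrays lay between 10.31 and 10.73. The limma estimate for iAb against sAb over both times was 0.42 (95% CI -0.02 to 0.87, adjusted p = 0.332). Itgb2 is also abundant in myeloid cells, and the myeloid marker sum was 678 with sAb and 685 with iAb at 3 h; the part of these cells in the level of Itgb2 was not tested.

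Itga4, the alpha 4 chain, lay lower with iAb and with sAb+LatA than with sAb at both times, though the adjusted tests did not pass. It was at 10.09 on the naive and 10.13 on the LatA array, at 10.17 with sAb, 9.35 with sAb+LatA and 8.67 with iAb at 3 h, and at 9.96, 9.31 and 9.23 at 24 h. Both sAb arrays lay with the 2 arrays without antibody (9.96 to 10.17), and the 4 sAb+LatA and iAb arrays lay below them (8.67 to 9.35). This grouping was drawn from the values themselves, and no share of all genes is given for it. The iAb array was 2.83-fold below the sAb array at 3 h, a difference at the 0.761 percentile of all genes, and 1.66-fold below it at 24 h. The limma estimate over both times was -1.12 (SE 0.21, 95% CI -1.62 to -0.61, unadjusted p = 0.00157, adjusted p = 0.257) for iAb against sAb and -0.74 (95% CI -1.24 to -0.23, unadjusted p = 0.0118, adjusted p = 0.799) for sAb+LatA against sAb. Neither passed the adjusted threshold. From 3 h to 24 h the estimate was 0.11 (adjusted p = 0.715). A probe set annotated to both Cerkl and Itga4 was not used and lay near background. It read 5.24 (sAb), 4.90 (sAb+LatA) and 4.63 (iAb) at 3 h, and 5.16, 5.13 and 5.28 at 24 h, where iAb was highest.

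Of the beta partners of alpha 4, Itgb7 shared its order of stimuli at 3 h but lay above naive on all 3 arrays of 24 h, where Itga4 lay below, and Itgb1 was highest with iAb at 3 h, where Itga4 was lowest. Itgb1, the beta 1 chain of VLA-4 and of the laminin receptor, was at 8.61 and 8.76 without antibody, at 8.73 (sAb), 8.86 (sAb+LatA) and 9.05 (iAb) at 3 h, and at 8.64, 8.67 and 8.86 at 24 h. Its range over the 8 arrays was the narrowest of the 10 genes at 0.44, it was never 1.5-fold different between the compared arrays, and it passed the adjusted threshold in none of the 5 limma comparisons. On the iAb 3 h array, Itga4 was 1.42 below naive and Itgb1 0.44 above it.

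Itgb7, the beta 7 chain, was low at 3 h and back at 24 h. It was at 8.40 on the naive and 8.32 on the LatA array, at 7.88 with sAb, 7.23 with sAb+LatA and 6.88 with iAb at 3 h, and at 8.74, 8.63 and 8.46 at 24 h. All 3 h arrays were below all 24 h arrays, as in 22.1% of all genes, and stepped down from sAb over sAb+LatA to iAb. They were also below both arrays without antibody, for which no share of all genes is given. In limma Itgb7 fell by 0.88 at 3 h (SE 0.19, 95% CI -1.30 to -0.45, adjusted p = 0.0251) and rose by 1.28 from 3 h to 24 h (SE 0.16, 95% CI 0.88 to 1.68, 2.43-fold, adjusted p = 0.00483). At 24 h it was 0.40 above no antibody, short of the threshold (adjusted p = 0.137). The iAb estimate against sAb was -0.64 (unadjusted p = 0.0172, adjusted p = 0.259).

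Itgae, the alpha E chain known as CD103, fell furthest. It was at 7.29 on the naive and 7.39 on the LatA array, at 7.00 (sAb), 6.83 (sAb+LatA) and 6.72 (iAb) at 3 h, and at 5.79, 5.26 and 5.24 at 24 h. All 3 arrays of 24 h lay below all 3 of 3 h, as in 15.1% of all genes. All 6 antibody arrays lay below both arrays without antibody, as in 15.4%. At either time iAb was lowest and sAb highest. Itgae fell by 1.83 at 24 h against no antibody (SE 0.16, 95% CI -2.21 to -1.46, 3.56-fold, adjusted p = 0.000196) and by 1.42 from 3 h to 24 h (95% CI -1.72 to -1.12, 2.67-fold, adjusted p = 0.00164), while its estimate at 3 h of -0.42 did not pass (adjusted p = 0.158). Its partner chain Itgb7 went the other way between these times, so that on the iAb arrays Itgae changed by -1.48 and Itgb7 by 1.58 from 3 h to 24 h. The 24 h values of Itgae were 0.48 to 1.02 above the background level of their arrays, close to the floor of the measurement. CD103 is carried by CD8 T cells and regulatory T cells among others, and over the same times Cd8a rose by 1.42 (24 h against no antibody, adjusted p = 0.000863), Ikzf2 fell by 1.10 (adjusted p = 0.000988) and Foxp3 stood at 0.30 (adjusted p = 0.115). The myeloid marker sum was 1077 to 1242 without antibody, 630 to 685 at 3 h and 409 to 435 at 24 h. The part of any of these cells in the fall of Itgae was not tested.

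Itga6, the alpha 6 chain of the laminin receptor, was at 9.79 and 9.82 without antibody, at 10.15 with sAb, 9.67 with sAb+LatA and 8.50 with iAb at 3 h, and at 9.75, 9.29 and 9.37 at 24 h. The highest and the lowest array were both from 3 h. The iAb array at 3 h was 3.12-fold below sAb, a difference at the 0.485 percentile of all genes, and 1.31-fold below it at 24 h. The limma estimate over both times was -1.01 (SE 0.32, 95% CI -1.79 to -0.24, unadjusted p = 0.0179, adjusted p = 0.259). Its direction between 3 h and 24 h differed by stimulus, at 0.86 for iAb against -0.39 for sAb and -0.38 for sAb+LatA.

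Itgav, the alpha V chain of the vitronectin receptors, was at 8.73 on the naive and 8.86 on the LatA array, at 8.23 (sAb), 8.35 (sAb+LatA) and 8.85 (iAb) at 3 h, and at 7.85, 7.78 and 7.60 at 24 h. The iAb 3 h array lay with the arrays without antibody, and all 24 h arrays lay below all 3 h arrays, as in 15.1% of all genes. Itgav fell by 1.11 at 24 h against no antibody (95% CI -1.56 to -0.65, 2.16-fold, adjusted p = 0.00391) and by 0.73 from 3 h to 24 h (95% CI -1.18 to -0.29, adjusted p = 0.0386). Its second probe set lay below background on all arrays (3.80 to 4.57), and with the mean of both neither call was kept (-0.60 at 24 h, adjusted p = 0.0569, and -0.44 from 3 h to 24 h, adjusted p = 0.171). The call from 3 h to 24 h was also lost without the iAb arrays (-0.48, adjusted p = 0.055) and without the sAb+LatA arrays (-0.81, adjusted p = 0.119).

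Itgb3, the beta 3 chain that pairs with alpha V, was called higher at 24 h against no antibody, where Itgav was called lower. It was at 7.61 on the naive and 7.70 on the LatA array, at 8.43 with sAb, 8.07 with sAb+LatA and 7.95 with iAb at 3 h, and at 8.47, 8.27 and 7.84 at 24 h. All 6 antibody arrays were above both arrays without antibody, and at each time sAb was highest and iAb lowest. In limma Itgb3 rose by 0.63 at 3 h (95% CI 0.28 to 0.98, adjusted p = 0.0379) and by 0.68 at 24 h against no antibody (95% CI 0.33 to 1.03, adjusted p = 0.0106). The rise at 3 h had an adjusted p of 0.0567 after median centring, 0.0516 after quantile normalization and 0.0552 with no filter on background. The estimate for iAb against sAb was -0.56 (95% CI -0.91 to -0.20, unadjusted p = 0.00824, adjusted p = 0.257). The iAb arrays themselves lay 0.34 (3 h) and 0.23 (24 h) above the naive array.

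**Figure D2:**
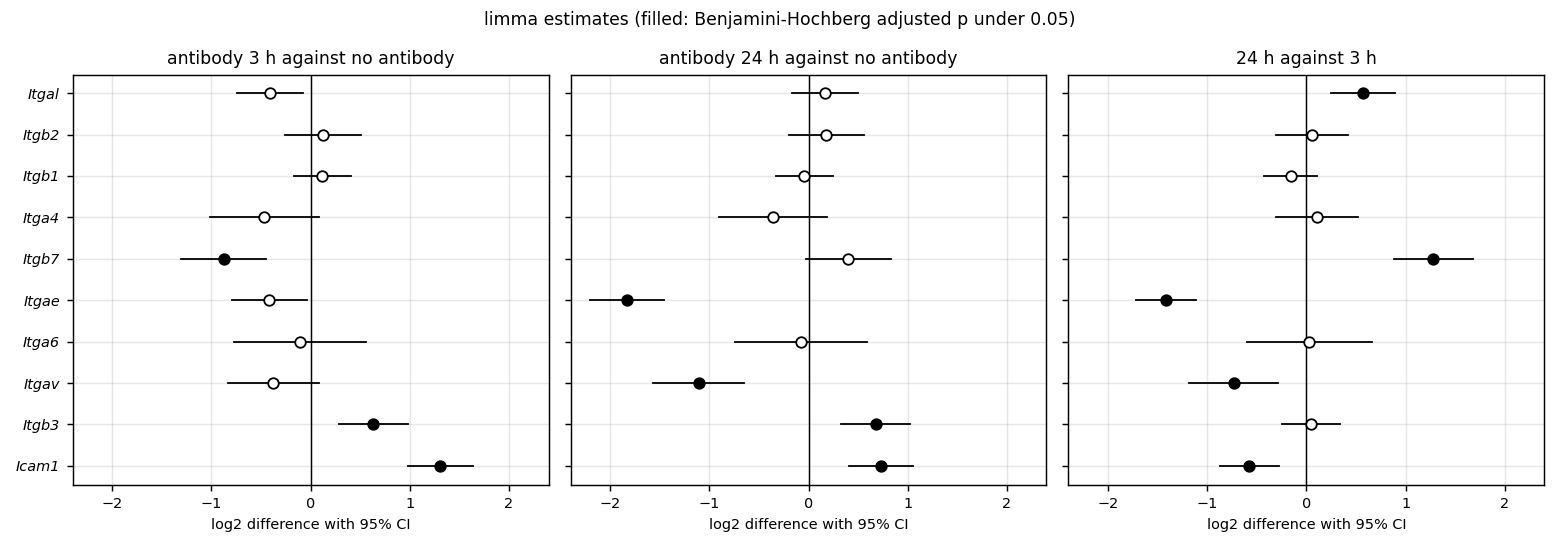
limma estimates of the log2 difference (x axis, with 95% confidence interval as a line) for the 10 genes (y axis) in 3 comparisons, filled where the adjusted p was under 0.05. The comparisons with no antibody describe soluble antibody. Icam1 and Itgb3 are above 0 at both times against no antibody, and Itgae (-1.42) and Itgb7 (1.28) lie on opposite sides of 0 for 24 h against 3 h.

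For 3 h against no antibody, 2 of the 10 genes were called higher (Icam1 and Itgb3) beside 6.14% of 13345 genes tested. Itgb7 was called lower (1 of 10, beside 3.75%), and its sAb array differed from naive by -0.51, short of 1.5-fold. With iAb at 3 h, Itga4 and Itga6 lay 1.42 and 1.28 below naive. The limma estimates for 3 h against no antibody, -0.47 and -0.10 (adjusted p = 0.271 and 0.87), do not describe that difference. For 24 h against no antibody, 2 genes were called higher (Icam1 and Itgb3) beside 20.4% of all genes. Itgae and Itgav were called lower (2 of 10, beside 12.3%). From 3 h to 24 h, 2 of the 10 were called higher (Itgal and Itgb7) beside 13.2% of 13254 genes, and 3 lower (Itgae, Itgav and Icam1) beside 7.32%. Of the calls from 3 h to 24 h across all genes 64.3% were higher, a share that became 41.6% after median centring, which shifted the median of all genes from 0.03 to -0.12. The shares for antibody against none went from 62.0% to 45.9% at 3 h and from 62.4% to 35.7% at 24 h. Without the sAb+LatA arrays the 5 calls among the 10 genes from 3 h to 24 h became 2, and those among all genes went from 2719 to 862.

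By order of the arrays alone, Itgal and Itgb7 were above all 3 h arrays on every 24 h array, as were 22.1% of all genes, and Itgae, Itgav and Icam1 were below, as were 15.1%. Icam1 and Itgb3 were higher on all 6 antibody arrays than on both others, as were 17.0% of all genes, and Itgae was lower, as were 15.4%.

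Against the naive array, which all of the following pairs share, the sAb 3 h array had Itgb3 and Icam1 at least 1.5-fold higher (2 of 10, beside 6.19% of all genes) and 0 lower (beside 3.57%). On the iAb 3 h array Itgb2 and Icam1 were higher (2 of 10, beside 15.0%) and Itga4, Itgb7 and Itga6 lower (3 of 10, beside 12.6%). On the sAb+LatA 3 h array Icam1 was higher (1 of 10, beside 10.4%) and Itga4 and Itgb7 lower (2 of 10, beside 8.8%).

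At 24 h, sAb had Itgb3 and Icam1 higher than naive (2 of 10, beside 17.2%) and Itgae and Itgav lower (2 of 10, beside 8.85%). With iAb 0 of 10 were higher (beside 21.2%) and Itga4, Itgae and Itgav lower (3 of 10, beside 12.9%). With sAb+LatA Itgb3 and Icam1 were higher (2 of 10, beside 19.7%) and Itga4, Itgae and Itgav lower (3 of 10, beside 11.8%). Itga4 was thus 1.5-fold lower on the 4 iAb and sAb+LatA arrays and on neither sAb array. No share of all genes is given for that combination.

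Set directly against sAb at 3 h, iAb had Itgb2 and Itgav at least 1.5-fold higher (2 of 10, beside 8.69%) and Itga4, Itgb7 and Itga6 lower (3 of 10, beside 10.2%). At 24 h 0 of 10 were higher (beside 3.22%) and Itga4 and Itgb3 lower (2 of 10, beside 2.59%). With sAb+LatA against sAb, 0 of 10 were higher and Itga4 and Itgb7 lower at 3 h (beside 2.47% and 3.4%), and 0 were higher and Itga4 lower at 24 h (beside 1.82% and 1.95%). In limma no gene of 13254 was called for either contrast (0.0% of all genes for each; smallest adjusted p 0.257 and 0.799). At an unadjusted p under 0.05, iAb was lower than sAb in 1038 genes (7.83%), among them 5 of the 10 (Itga4, Itgb7, Itgae, Itga6 and Itgb3), and higher in 1074 genes with none of the 10. For sAb+LatA 454 genes (3.43%) were lower, among them Itga4, and 280 were higher with none of the 10.

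**Figure D3:**
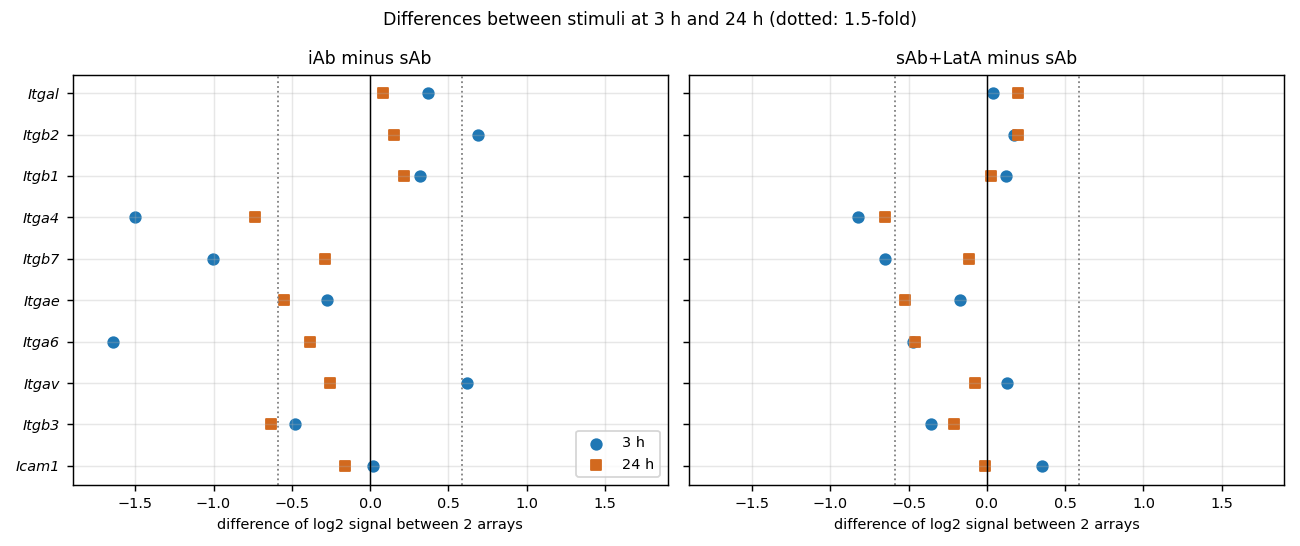
Difference of log2 signal (x axis) between the iAb and sAb arrays (left) and between the sAb+LatA and sAb arrays (right) for the 10 genes (y axis) at 3 h (circles) and 24 h (squares), with dotted lines at 1.5-fold. Itga4 is on the lower side in all 4 differences (-1.50, -0.73, -0.82 and -0.65), and the differences of Itga6 and Itgb7 with iAb are larger at 3 h than at 24 h.

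At 3 h the sAb+LatA array lay between the sAb and iAb arrays for 9 of the 10 genes. Itga4, Itgb7, Itgae, Itga6 and Itgb3 stepped down from sAb over sAb+LatA to iAb, as did 26.8% of all genes, and Itgal, Itgb2, Itgb1 and Itgav stepped up, as did 24.3%. Icam1 was the exception, with sAb+LatA highest. Each value is 1 array, so neighbours in these orders cannot be set against a spread.

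Within a stimulus, the 24 h array of sAb had Itgal and Itgb7 at least 1.5-fold above its 3 h array (2 of 10, beside 9.51%) and Itgae below it (1 of 10, beside 5.63%). For iAb, Itgb7 and Itga6 were above (2 of 10, beside 16.1%) and Itgae and Itgav below (2 of 10, beside 9.48%). For sAb+LatA, Itgal and Itgb7 were above (2 of 10, beside 13.1%) and Itgae and Icam1 below (2 of 10, beside 7.4%). Itgb7 and Itgae moved in opposite directions in all 3 stimuli.

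Likeness over the 8 arrays was taken as Pearson's r among 3641 genes with a range of at least 1 log2 unit, as a description of points that share arrays. The genes most like Itgae were Tnfaip3 (r = 0.9996), an inhibitor of NF-kB signalling also called A20, Tgoln1 (0.997) and Zhx2 (0.996). Tnfaip3 went from 11.49 on the naive array to 10.68 with iAb at 3 h and 8.40 with iAb at 24 h, a wider range than Itgae. Most like Itgb7 were Pglyrp2 (0.988), Acsf2 (0.987) and Aff3 (0.981), which were likewise low at 3 h only.

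Closest to Itga4 were Rnf167 (0.991), Esyt2 (0.987) and Lipa (0.987), and closest to Itga6 were Add3 (0.989), which encodes an adducin that caps actin filaments, Nipal1 (0.982) and Cdc42se2 (0.978), a small effector of the GTPase Cdc42. Add3 was at 10.99 with sAb and 9.08 with iAb at 3 h. These 4 integrins had the widest ranges of the 10. For Icam1, added after its values were seen, the likest genes were Ncoa3 (0.992), Lad1 (0.989) and the death receptor Fas (0.987), and Lad1, Fas and Ncoa3 were, as was Icam1, highest with sAb+LatA at 3 h.

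**Figure D4:**
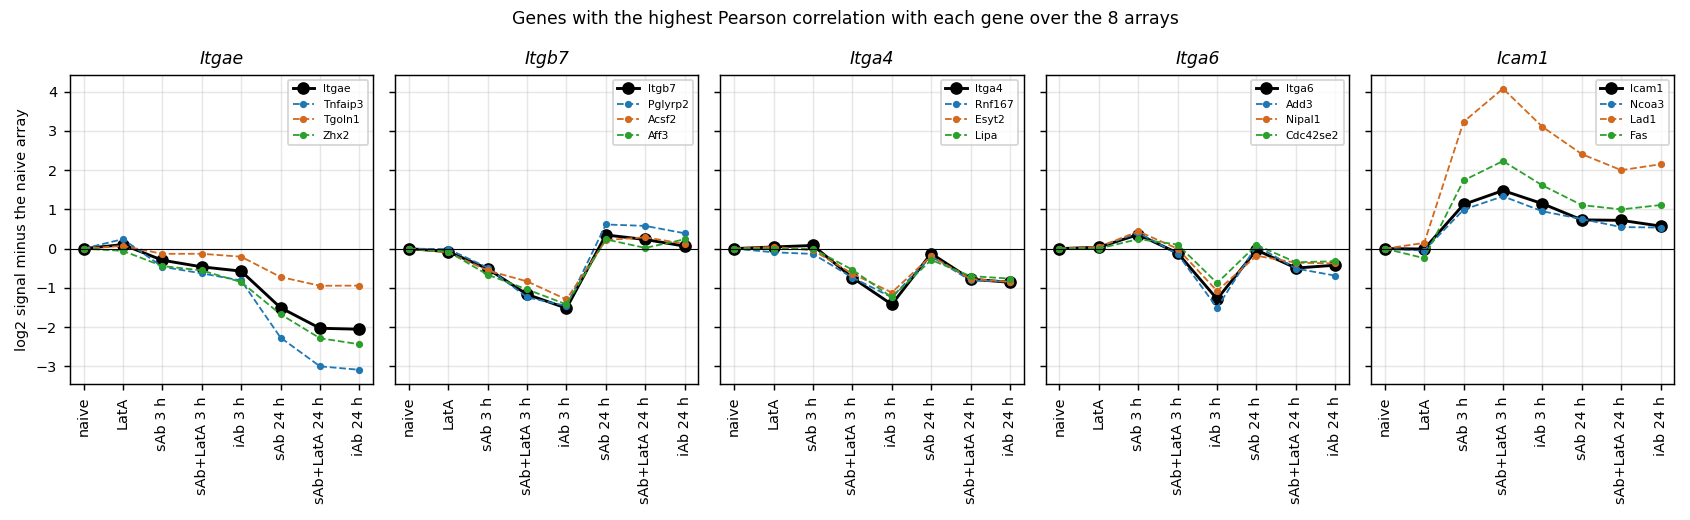
log2 signal minus that of the naive array (y axis) on the 8 arrays (x axis) for Itgae, Itgb7, Itga4, Itga6 and Icam1 (black) and the 3 genes with the highest Pearson correlation with each (colours). Each set follows its integrin or Icam1 in shape, and Tnfaip3 and Lad1 have wider ranges than Itgae and Icam1.

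The fall of Itgav ran beside a fall of myeloid markers. Of 16 listed markers 15 were measured, 5 of them below background on all arrays (Itgam, S100a8, S100a9, Batf3 and Siglech), and their summed linear signal was 1077 to 1242 without antibody, 630 to 685 at 3 h and 409 to 435 at 24 h. In limma 7 of the 10 above background were called lower at 24 h against no antibody (beside 12.3% of all genes) and 0 higher (beside 20.4%). Csf1r, a macrophage receptor among them, went from 7.66 on the naive array to 4.54 (sAb), 5.23 (sAb+LatA) and 4.44 (iAb) at 24 h. The sAb and iAb values were below background. Vcam1, the ligand of VLA-4, went from 9.002 on the naive array to 5.83 (sAb), 5.82 (sAb+LatA) and 5.55 (iAb) at 24 h, a fall of 3.08 in limma (24 h against no antibody, adjusted p = 1.5e-05). At 3 h the myeloid sum was 678 (sAb), 630 (sAb+LatA) and 685 (iAb), and Itgav was at 8.23, 8.35 and 8.85, with 1 array each. The part of these cells in the levels of Itgav and Vcam1 was not tested.

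Itgb3 is abundant in platelets, where it pairs with Itga2b. Platelet and erythroid markers (4 of 10 measured, Pf4 below background) summed to 174 to 191 without antibody, 147 to 160 at 3 h and 111 to 141 at 24 h, and Itga2b stood at 5.62 on the naive array and at 5.14 to 5.31 at 24 h. The part of platelets in the levels of Itgb3 was not tested.

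**Figure D5:**
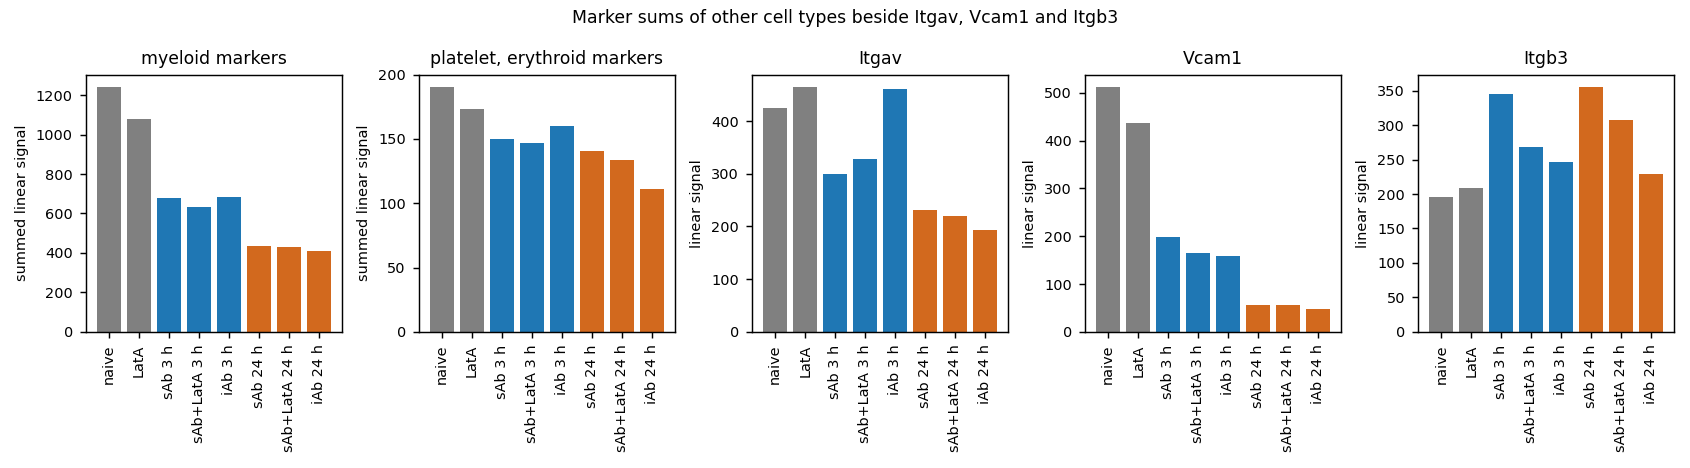
Linear signal (y axes, from 0) on the 8 arrays (x axes; grey, no antibody; blue, 3 h; orange, 24 h), summed over myeloid and over platelet and erythroid markers, and for Itgav, Vcam1 and Itgb3 singly. Both sums and Vcam1 are highest without antibody and lowest at 24 h, Itgav is as high on the iAb 3 h array as without antibody, and Itgb3 is lowest without antibody.

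Other integrin subunits (17 of 18 listed were measured, 11 above background on some array) had 4 of the 11 called lower (beside 12.3% of all genes) and 0 higher (beside 20.4%) at 24 h against no antibody, with a median of -0.42 beside 0.01 for all genes. From 3 h to 24 h 2 were called lower (beside 7.32%) and 0 higher (beside 13.2%). Itgb8, whose product activates TGF-beta, was at 7.15 on the naive array, 7.11 to 7.38 at 3 h and 5.47 to 6.09 at 24 h, and fell by 1.45 at 24 h (adjusted p = 0.001). Itgad and Itgb5 were also called lower there (adjusted p = 0.00146 and 0.00136), with no size given because Itgad was below background on all 3 arrays of 24 h (3.98 to 4.76, beside 5.97 on the naive array) and Itgb5 on the sAb+LatA and iAb arrays of 24 h (4.29 and 4.52, beside 5.73 on the naive array). Itgax, a dendritic cell chain, was highest on the iAb 3 h array at 5.78 and above background on 3 arrays, none of them at 24 h, and it and Itgam are also in the list of myeloid markers.

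Among the other integrin ligands (14 of 15 measured, 10 above background) 2 rose and 1 fell at 24 h against no antibody, shares close to the 20.4% and 12.3% of all genes. Thy1, a T cell surface glycoprotein and ligand of beta 3 integrins, rose by 1.26 (adjusted p = 0.000596), Lgals3bp rose by 0.82 (adjusted p = 0.0154) and Vcam1 fell. Icam2, another LFA-1 ligand of lymphocytes, was at 7.38 on the naive array, at 7.18 (sAb), 6.85 (sAb+LatA) and 6.54 (iAb) at 3 h and at 7.24, 7.05 and 6.84 at 24 h, with estimates of -0.46 at 3 h (adjusted p = 0.0966) and -0.27 at 24 h (adjusted p = 0.211).

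Genes that carry the signal from the antigen receptor to integrins (23 of 25 listed measured, 20 above background) had 8 of 20 members at least 1.5-fold below sAb on the iAb 3 h array (beside 10.2% of all genes) and 0 above (beside 8.69%), with a median of -0.43 beside -0.02 for all genes. With sAb+LatA at 3 h 4 of 20 lay below sAb (beside 3.4%) and 0 above. In limma 0 of the 20 were called for either contrast. Rasgrp2, which loads the integrin-activating GTPase Rap1, was at 8.64 on the naive array, at 7.50 (sAb), 6.72 (sAb+LatA) and 6.07 (iAb) at 3 h, and fell by 1.68 at 3 h in limma (adjusted p = 0.00862). Sipa1, which switches Rap1 off, rose by 1.37 at 24 h against no antibody (adjusted p = 0.00155). The kinase gene Prkd2 and the adaptor gene Fyb were lowest with iAb at 3 h (8.64 and 8.9995, beside 10.07 and 10.33 with sAb) and passed the threshold in neither time comparison with no antibody. From 3 h to 24 h 5 of the 20 rose (beside 13.2% of all genes) and 0 fell (beside 7.32%).

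Of the genes that link integrins to actin and signal from them (24 of 27 measured, 22 above background), 3 rose (beside 20.4% of all genes) and 5 fell (beside 12.3%) at 24 h against no antibody. Evl and Parvg rose by 1.68 and 1.04 (adjusted p = 0.000831 and 0.000767), and the kinase gene Fyn fell by 0.47 (adjusted p = 0.0423). Actn1, the alpha-actinin that binds beta subunit tails, was at 11.28 on the naive array, at 11.40 (sAb), 10.75 (sAb+LatA) and 9.63 (iAb) at 3 h and at 10.97, 10.40 and 10.34 at 24 h, an order of arrays also seen in Itga4 at both times.

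In a list of 14 measured homing and adhesion genes, 4 rose (beside 20.4% of all genes) and 4 fell (beside 12.3%) at 24 h against no antibody. Crtam, an adhesion receptor of activated T cells, rose by 3.54 at 3 h (adjusted p = 0.00231). S1pr1, the receptor for exit from lymph nodes, fell by 1.57 at 3 h (adjusted p = 0.0351) and was at 10.77 with sAb, 9.88 with sAb+LatA and 8.25 with iAb, an order also seen in Itga4 and Itga6 at that time. Cxcr4 fell by 1.94 at 24 h (adjusted p = 0.000521), and Alcam, a CD6 ligand, was highest with iAb at 3 h (7.99, beside 6.58 with sAb).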

How the data were processed

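CD3+ T cells of 8 conditions were measured on 8 Affymetrix Mouse Gene ST 2.0 arrays, 1 per condition, grouped by the treatment and time in the labels. The authors deposited log2 values that they had normalized over all arrays by the robust multi-average method, with signals read in the Affymetrix console software; the log2 scale was read from the values, and a genome build for the probe annotation is not given in the sources used here. Of 41345 probe sets, 23521 carried 1 gene symbol and gave 22180 genes (highest mean where a gene had several), and 1820 with several symbols were not used. All 11 single-symbol probe sets of the 10 genes gave the same symbol in RefSeq. No per-sample column was left unmapped, and no pair of arrays was identical.

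Array pairs were compared as differences of log2 values (no pseudocount, 1.5-fold, above background on at least 1 of the pair). Effects were tested with limma 3.58.1 in R 4.3.3 on genes above background on any array of the fit, as stimulus plus time over 6 antibody arrays (2 residual degrees of freedom) and as antibody state plus latrunculin A plus immobilization over 8 arrays (3 residual degrees of freedom), with Benjamini-Hochberg adjusted p under 0.05. The models assume that effects add, and 8 arrays give a limited precision. Counts, sums and correlations were computed in Python 3.11.15 with pandas 2.3.3.

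The 10 genes, the 12 other gene lists and the tests were chosen with earlier results of these data known. All 10 genes are named; of each other list, up to 4 genes with the largest range over the arrays; for likeness, the 3 most correlated genes of the 4 integrins with the largest range. Alternatives were no background filter, the 99th percentile as background, median centring, quantile normalization, the mean of probe sets, 2-fold, an intensity trend in limma, and fits without a stimulus or over all 8 arrays. Protein sequences were not used here.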

Additional observations from a re-analysis of the deposited data

Results flagged for a closer look

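Itgb7 and Itgav differed from a reference array in opposite directions at 3 h and at 24 h, with 1.5-fold passed at one of the times. Each difference rests on 1 array per condition and the change between the times was not tested as an interaction. For Itgb7, iAb against naive was -1.52 at 3 h and 0.06 at 24 h, a change of 1.58, and sAb+LatA against naive was -1.17 and 0.23, a change of 1.40. For Itgav, iAb against naive was 0.12 at 3 h and -1.13 at 24 h, a change of -1.25, and iAb against sAb was 0.62 and -0.26, a change of -0.87. The naive array is shared by 3 of these 4 results. No group held 4 or more arrays, so no array could be set apart within a group.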

How the results depend on the processing

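No paired analysis was possible because each condition had 1 array and the labels carry no replicate numbers. Of 370 tested values of single genes under alternatives, 344 kept direction and side of the threshold, 14 changed sign, 11 lost and 1 gained a call, and of 700 pair differences 696 moved little and 4 more, all of Itgav with the mean of probe sets (against naive at 24 h, -0.42 with sAb, -0.74 with iAb and -0.46 with sAb+LatA, and -0.15 for sAb+LatA at 24 h against 3 h). The calls lost stand in the report, and Itgav gained one at 3 h against no antibody without the iAb arrays (-0.50, adjusted p = 0.0497).

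All values that changed sign were below the threshold. With median centring, 24 h against 3 h became -0.0952 (Itgb2), -0.0458 (Itga4), -0.124 (Itga6) and -0.108 (Itgb3), and 24 h against no antibody became -0.0513 (Itgal) and -0.0324 (Itgb2). Quantile normalization gave -0.0229 (Itgb3, 24 h against 3 h), and the mean of probe sets -0.0493 (Itgav, sAb+LatA against sAb). Without the iAb arrays, 24 h against 3 h was -0.12 (Itga4) and -0.39 (Itga6), and 3 h against no antibody was 0.10 (Itga6). The time estimate was -0.0264 for Itgb2 without the sAb arrays, and -0.0411 for Itgb2 and -0.0317 for Itgb3 without the sAb+LatA arrays. That last fit called 2 of the 10 genes and 862 of all genes, with fewer arrays than the 5 and 2719 of the full fit.

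Listed here are only the counts that moved by a factor of more than 1.5, or to or from 0. At 2-fold in place of 1.5-fold, the genes higher than naive were 1 (sAb 3 h), 1 (iAb 3 h), 0 (sAb 24 h) and 0 (sAb+LatA 24 h), and those lower were 1 each for sAb+LatA 3 h, sAb 24 h and sAb+LatA 24 h. With iAb at 3 h, Itga4, Itgb7 and Itga6 stayed past 2-fold below naive (2.68-, 2.86- and 2.43-fold) and below sAb (2.83-, 2.01- and 3.12-fold). With iAb at 24 h, Itgae and Itgav stayed past 2-fold below naive (4.15- and 2.19-fold). Against sAb, 0 were higher with iAb at 3 h, 0 lower with iAb at 24 h, and 0 lower with sAb+LatA at 3 h or 24 h. From 3 h to 24 h, 0 (sAb), 1 (iAb) and 1 (sAb+LatA) were higher and 1 (sAb+LatA) lower. With median centring 2 genes were lower than naive with sAb at 3 h, 1 was higher with sAb and 0 with sAb+LatA at 24 h, and 1 was higher at 24 h than at 3 h with sAb. Quantile normalization gave 1 higher than naive with iAb at 3 h, 1 with sAb and 0 with sAb+LatA at 24 h. The mean of probe sets gave 1 lower than naive with sAb at 24 h and 1 higher with iAb than sAb at 3 h. The cause of these shifts was not tested. No alternative called any gene for iAb or sAb+LatA against sAb, and with 1 array per condition and additive models, differences between stimuli at a single time have no error of their own.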

Other observations

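Genes of T cell activation and subsets gave the setting of the integrin values. Il2 was at 3.15 on the naive array, at 6.65 (sAb), 7.98 (sAb+LatA) and 7.35 (iAb) at 3 h and at 3.48 to 4.14 at 24 h; it was called higher at 3 h in limma (adjusted p = 0.00181), with no size given because it was above background on the 3 arrays of 3 h only. Mki67, a marker of cycling cells, was at 7.16 to 7.32 at 3 h and at 9.83 to 10.55 at 24 h, a rise of 3.07 between the times (adjusted p = 0.000997). Of 8 activation genes 5 rose (beside 6.14% of all genes) and 0 fell (beside 3.75%) at 3 h against no antibody, and 1 rose (beside 13.2%) and 6 fell (beside 7.32%) from 3 h to 24 h. Foxp3, the factor of regulatory T cells, rose by 1.10 at 3 h (adjusted p = 0.00399) and fell by 0.80 from 3 h to 24 h (adjusted p = 0.00661). Cd8b1, the CD8 beta chain, rose by 0.72 from 3 h to 24 h (adjusted p = 0.00805).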
